A study of Arabidopsis thaliana with 12 samples.

Results

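A set of 74 genes of Arabidopsis thaliana, the thale cress, was followed. Their probes had means above the array medians at 20 °C, and their array values at 4 °C and at 20 °C occupied overlapping ranges. The members were chosen by measured values. Each had a probe annotated to exactly 1 gene, a mean deposited intensity of at least 0.8 over the 6 arrays at 20 °C, and at least partial overlap between the 6 values at 4 °C and the 6 values at 20 °C. Of 3439 probes, 692 carried a single gene name, and 215 of those reached 0.8. Overlap was met by 77 of the 215, and 3 of these 77 were left out by name, which gave the 74. Most of the 74 were not far above the threshold: their means at 20 °C had a median of 1.38, and 53 lay below 2. Because the comparison of the 2 temperatures chose the genes, their changes are described here and not tested.

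All plants were wild type, ecotype Columbia 0. The first group of 6 arrays came from plants moved to 4 °C for 24 h in medium light, which the submitters call photoinhibitory. The other 6 arrays came from plants grown in medium light at 20 °C. No label gives the organ, the age of the plants or the time of harvest.

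In strong or excess light photosystem II is damaged and has to be repaired, and cold slows the repair and the enzymes that use the products of photosynthesis. Leaves pass excess reducing power to other sinks, among them malate export from the chloroplast and electron flow around photosystem I through the NDH complex. Plants that acclimate to cold also shift sucrose synthesis, membrane composition and the transcription of many genes. Some of the 74 genes belong to these processes, and most carry a locus name only.

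Deposited intensities have no physical unit. Summed over all probes they came to 3510 to 3663 per array at 4 °C and to 3627 to 3745 at 20 °C, so an average probe stood near 1 and a value is close to a share of its array's total. The median probe stood lower at 4 °C, at 0.276 to 0.315, than at 20 °C, at 0.536 to 0.569. Arrays 1 and 2, 3 and 4, and 5 and 6 of a group deviated together while other arrays did not. Each such pair was therefore averaged and counted as 1 sample, here called pair 1, 2 and 3. Log2 changes and their SEs use log2 values averaged within a pair. Printed pair means are averages of the 2 intensities, and the SD of log2 pair means is that of their log2. Means are given with the SD over these pair means (n = 3 in each group). Nothing in the labels says that the pairs were separate plants, so SDs, SEs and p-values cover spread between such pairs alone, and that spread may be technical. SEs and p-values are moderated: limma draws the variance of each probe toward that of all probes. An SE is therefore not the gene's own spread alone, and can be larger or smaller than its SD would give. No label says whether pairs with the same number at the 2 temperatures were matched, and they were treated as unmatched. Levels of different genes come from different probes and show no order of transcript amount.

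As a set, the 74 genes were centred on no change as deposited. Their median log2 change, 4 °C minus 20 °C, was -0.02, with 32 genes higher and 42 lower at 4 °C. The same median was -0.74 over the 3379 probes above 0 on any array, and -0.48 over the 1166 probes with a mean of at least 0.8 at 20 °C. The 74 genes together held 5.43% to 6.65% of an array's total at 4 °C and 5.02% to 5.54% at 20 °C. Over all probes, 1675 were called lower and 232 higher at 4 °C in limma on pair means. The set's median near 0 follows from choosing genes by overlap of these values and supports nothing further. In whole tissue, fewer cells of a type and less RNA per cell cannot be told apart.

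The single changes were mostly small. The size of the change, as a ratio of geometric means, was below 1.1-fold in 19 genes and below 1.5-fold in 67. It reached at least 1.5-fold in 7 genes and at least 2-fold in 4 of those. The SE of a log2 change ran from 0.12 to 0.90, with a median of 0.18. Overlap of ranges does not show that a gene held its level, and 7 genes were past 1.5-fold. Some of these 7 changes had SEs near their size. They were 1.01 ± 0.72 in AT1G49850, 0.68 ± 0.55 in AT5G39980 and -1.0 ± 0.90 in AT2G11270 (SE). Neither a steady level of the set nor a change in these genes is thus shown.

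**Figure D1:**
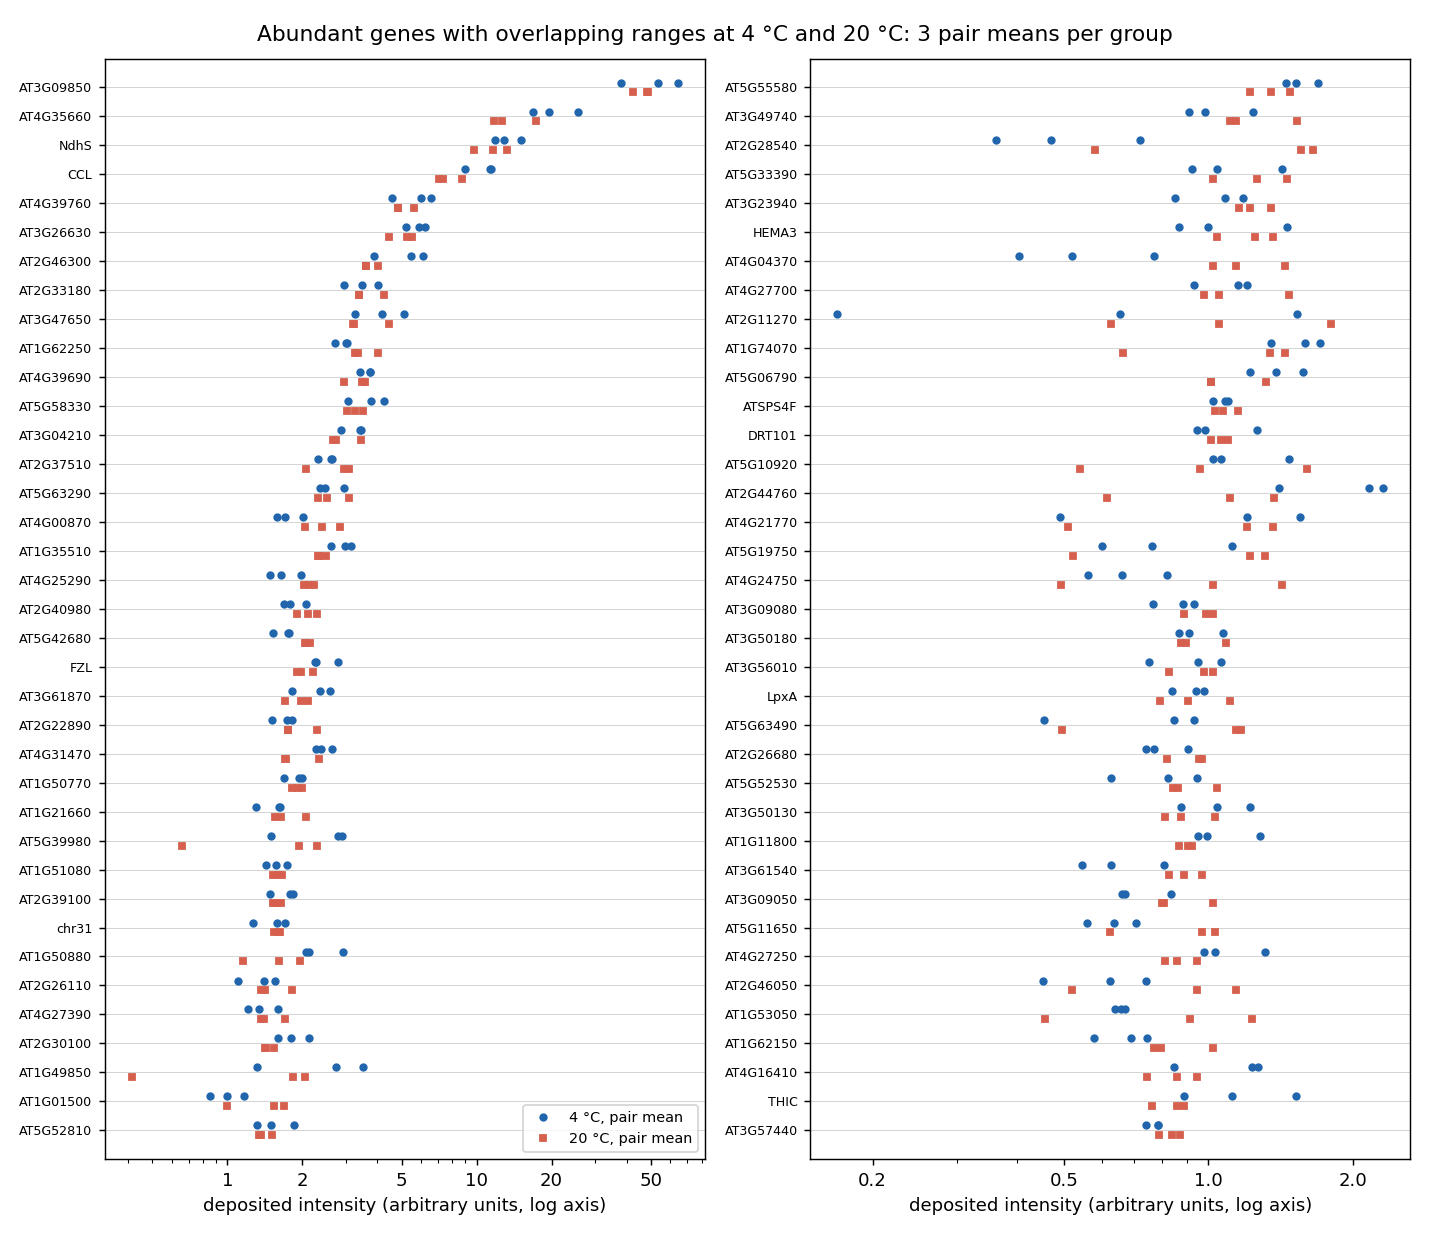
Deposited intensity (horizontal, log axis, arbitrary units) of each of the 74 genes, with 3 pair means at 4 °C (blue circles) above 3 pair means at 20 °C (red squares). Points compare within a row only: the ranges of AT1G51080 lie almost on top of each other, while AT2G28540 and AT4G04370 sit to the left at 4 °C.

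Overlap was common in the whole table. It was found in 42.6% of the 3379 probes, in 35.3% of the 1166 probes with a mean of at least 0.8 at 20 °C, and in 35.8% of the 215 single-gene probes at that level. Among the single-gene probes at that level, leaving out the 11 set aside by name, 27 stood higher at 4 °C without overlap, with log2 changes of 0.26 to 1.37, and 103 stood lower without overlap, with -7.92 to -0.23. In limma on pair means 1 of the 74 genes, AT4G04370, passed an adjusted p of 0.05, where 56.4% of the 3379 probes passed. Over the 12 single arrays 24 of the 74 passed in limma, where 72.3% of all probes did. These counts use the values that chose the genes and carry no further weight.

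**Figure D2:**
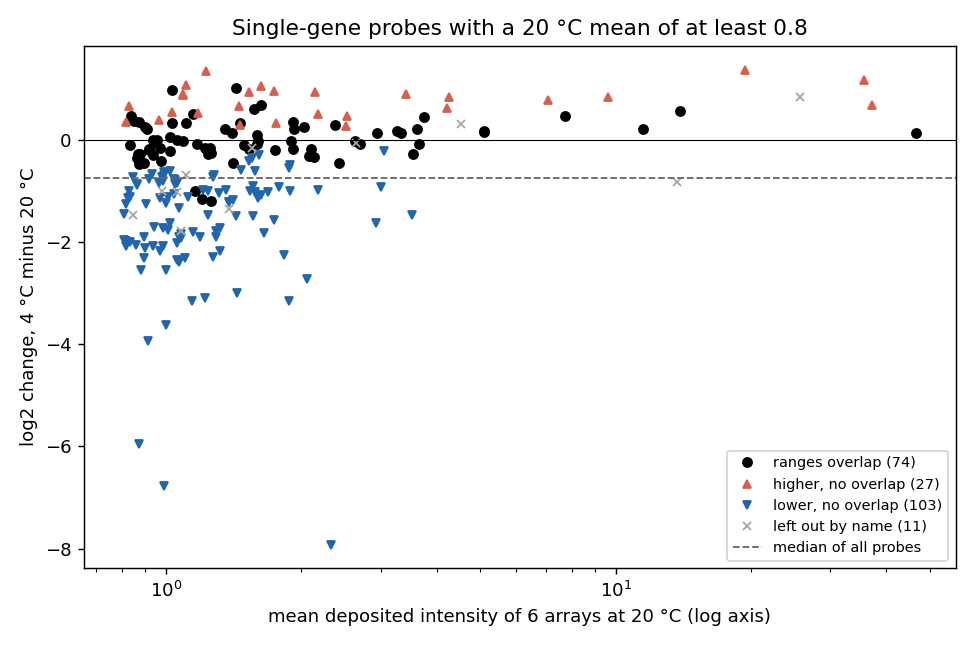
Log2 change, 4 °C minus 20 °C (vertical), against mean deposited intensity of the 6 arrays at 20 °C (horizontal, log axis) for the 215 single-gene probes with a mean of at least 0.8. The 74 genes (black circles) lie between -1.20 and 1.01, the 27 genes higher without overlap reach 1.37 and the 103 lower without overlap reach -7.92. Of the 74, all but 3 lie above the median of all probes (dashed line).

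Of the 74 genes, 11 have a descriptive name in the annotation used, and 4 of these, described first, act in the chloroplast's membranes, its redox balance or its gene expression. NdhS, also called CRR31, is the subunit of the chloroplast NDH complex that receives electrons from ferredoxin. It had 11.9, 12.9 and 15.1 in the pairs at 4 °C, against 13.3, 11.6 and 9.80 at 20 °C. The groups overlapped, since the highest pair at 20 °C exceeded both lower pairs at 4 °C, and the log2 change was 0.21 ± 0.18 (SE). AT5G58330 is NADP-dependent malate dehydrogenase, the stromal enzyme that turns oxaloacetate into malate at the expense of NADPH and so starts the malate valve. Its pair means were 3.06, 3.77 and 4.27 at 4 °C, against 3.25, 3.50 and 3.02 at 20 °C. The lowest pair at 4 °C lay within the range at 20 °C and the other 2 lay above it, with a log2 change of 0.17 ± 0.17 (SE).

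FZL, or FZO-like, is a dynamin-like GTPase of the chloroplast that shapes thylakoids. It stood at 2.27, 2.77 and 2.24 at 4 °C, against 1.90, 2.21 and 1.97 at 20 °C. Its pair means did not overlap, and only single arrays did, with a lowest array of 2.02 at 4 °C and a highest of 2.28 at 20 °C. The log2 change was 0.25 ± 0.15 (SE). AT5G55580, mTERF9, belongs to the family related to mitochondrial transcription termination factors and acts in chloroplast gene expression. It averaged 1.55 ± 0.122 at 4 °C and 1.35 ± 0.129 at 20 °C (SD, n = 3 each), and the lowest pair at 4 °C, at 1.45, lay below the highest at 20 °C, at 1.48. NdhS, AT5G58330, FZL and AT5G55580 all had log2 changes above 0, none larger than 0.25. Overlap of the ranges was required of these genes, so small changes were partly built in.

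Another 4 of the named genes, THIC, ATSPS4F, HEMA3 and LpxA, encode enzymes of cofactor, sugar, tetrapyrrole or lipid metabolism or their homologues. THIC makes the pyrimidine part of thiamine in the chloroplast. It had 1.52, 1.12 and 0.891 at 4 °C, against 0.889, 0.859 and 0.762 at 20 °C. Every pair at 4 °C stood above every pair at 20 °C, although the gap between 0.891 and 0.889 was tiny, and the ranges of the arrays overlapped only by 0.883 against 0.891. Its log2 change of 0.46 ± 0.22 (SE), or 0.26 without pair 1 at 4 °C, was the highest of these, and its SD at 4 °C, 0.316, was far wider than the 0.0667 at 20 °C.

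ATSPS4F encodes a sucrose-phosphate synthase, the enzyme that commits triose and hexose phosphates to sucrose. Its pair means were 1.02, 1.1 and 1.08 at 4 °C, against 1.15, 1.03 and 1.07 at 20 °C. The 6 values lay within a narrow band, with the highest and the second lowest both from 20 °C, and the log2 change was -0.02 ± 0.12 (SE). HEMA3 is a gene of the glutamyl-tRNA reductase family, whose enzymes begin tetrapyrrole synthesis. It averaged 1.11 ± 0.308 at 4 °C and 1.22 ± 0.163 at 20 °C (SD, n = 3 each), and the highest and the lowest pair of all 6 both came from 4 °C.

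LpxA is the homologue of the bacterial acyltransferase that begins lipid A synthesis. It averaged 0.921 ± 0.0723 at 4 °C and 0.935 ± 0.159 at 20 °C (SD, n = 3 each), and the 20 °C pairs enclosed all those of 4 °C. DRT101 was named as a plant cDNA that raised tolerance to DNA damage in repair-deficient bacteria. It averaged 1.06 ± 0.169 at 4 °C and 1.06 ± 0.0485 at 20 °C (SD, n = 3 each). For LpxA and DRT101 the log2 changes were -0.01 ± 0.17 and 0.00 ± 0.16 (SE), among the 5 smallest of the 74.

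The other named genes are a chromatin gene and a clock-linked one. The gene chr31, chromatin remodeling 31, encodes an SNF2-type protein linked to RNA-directed DNA methylation. It had 1.70, 1.27 and 1.58 at 4 °C, against 1.63, 1.54 and 1.61 at 20 °C, and the 20 °C pairs all lay inside the range at 4 °C. CCL, or CCR-like, is known for an unstable transcript whose decay follows the circadian clock. It had 11.3, 11.4 and 8.99 at 4 °C, against 8.72, 7.06 and 7.33 at 20 °C. All pairs at 4 °C exceeded those at 20 °C, and the overlap came from single arrays of 8.46 at 4 °C and 8.95 at 20 °C. With a log2 change of 0.46 ± 0.17 (SE), CCL was among the 8 genes with the highest changes.

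Among the 63 genes with a locus name only, no role is given here. The 10 genes with the highest probe values at 20 °C, picked by a fixed rule with no order of transcript amount implied, were NdhS, CCL and 8 of these. AT3G09850 had 38.0, 53.4 and 64.3 at 4 °C, against 48.8, 48.1 and 42.5 at 20 °C. The pairs at 4 °C enclosed those at 20 °C, with SDs of 13.2 and 3.44, so its log2 change of 0.13 ± 0.22 (SE) is loosely fixed. AT4G35660 had 16.8, 19.6 and 25.5 at 4 °C, against 12.7, 17.3 and 11.8 at 20 °C. Only pair 2 at 20 °C reached into the range at 4 °C, and the log2 change was 0.57 ± 0.23 (SE). AT2G46300 had 6.09, 5.46 and 3.87 at 4 °C, against 4.01, 3.61 and 3.6 at 20 °C. There the third pair at 4 °C lay inside the range at 20 °C and the other 2 lay well above it.

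The remaining 5 of the 10 had log2 changes between -0.28 and 0.20. AT4G39760 averaged 5.71 ± 1.04 at 4 °C and 5.10 ± 0.455 at 20 °C (SD, n = 3 each). AT3G26630 averaged 5.76 ± 0.495 and 5.09 ± 0.559 at these temperatures. AT3G47650 averaged 4.18 ± 0.929 at 4 °C and 3.62 ± 0.714 at 20 °C. Each of these 3 had a higher mean at 4 °C, by less than the larger of its 2 SDs except for AT3G26630. AT2G33180 averaged 3.47 ± 0.541 at 4 °C and 3.66 ± 0.503 at 20 °C. AT1G62250 had 3.0, 2.70 and 3.02 at 4 °C, against 4.02, 3.35 and 3.25 at 20 °C, so its pair means did not overlap and its log2 change was -0.28 ± 0.15 (SE).

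The closest agreement between temperatures was found in AT3G50180, DRT101, LpxA, AT5G63290 and AT1G51080, the 5 genes with the smallest log2 changes. AT1G51080 had 1.73, 1.43 and 1.57 at 4 °C, against 1.53, 1.59 and 1.66 at 20 °C. AT5G63290 had 2.46, 2.95 and 2.36 at 4 °C, against 2.51, 3.07 and 2.32 at 20 °C. AT3G50180 had 0.913, 0.870 and 1.07 at 4 °C, against 0.896, 1.09 and 0.878 at 20 °C. In each of the 3 the groups interleaved, and the log2 changes were -0.02, -0.02 and 0.00 with SEs of 0.13 to 0.17. A small SD did not always come with the smallest change: AT3G57440 had the lowest SD of log2 pair means pooled over both temperatures, 0.06, with means of 0.770 ± 0.0237 at 4 °C and 0.834 ± 0.0416 at 20 °C, and its pair means did not overlap.

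At the upper end of the changes stood AT1G49850, AT2G44760, AT5G39980, AT1G50880, AT4G35660, AT1G74070, THIC and CCL. AT1G49850 had 3.51, 1.31 and 2.73 at 4 °C, against 0.415, 1.83 and 2.04 at 20 °C. Its log2 change of 1.01 ± 0.72 (SE) leans on pair 1 at 20 °C, the lowest of 3 there. The change was 0.27 without that pair, and 0.71 without pair 1 at 4 °C, the highest of 3 there. AT2G44760 had 2.31, 2.16 and 1.40 at 4 °C, against 0.614, 1.11 and 1.37 at 20 °C. All its pairs at 4 °C were above those at 20 °C, the nearest by 1.40 against 1.37, and the log2 change was 0.97 ± 0.36 (SE), or 0.63 without pair 1 at 20 °C.

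AT5G39980 had 2.78, 1.49 and 2.89 at 4 °C, against 1.94, 0.658 and 2.29 at 20 °C. Pair 2 was the lowest in both groups, and the SE of 0.55 was close to the log2 change of 0.68, which was 0.12 without pair 2 at 20 °C and 1.02 without pair 3 at 20 °C. AT1G50880 had 2.90, 2.13 and 2.06 at 4 °C, against 1.95, 1.15 and 1.61 at 20 °C, with no overlap of pair means and a log2 change of 0.61 ± 0.25 (SE). AT1G74070 had 1.35, 1.59 and 1.71 at 4 °C, against 1.44, 0.665 and 1.34 at 20 °C. Its log2 change of 0.50 ± 0.33 (SE) came with 1 low pair at 20 °C, the other 2 lying at the lower edge of the 4 °C values, and was 0.15 without that pair.

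At the lower end stood AT2G28540, AT4G04370, AT2G11270, AT2G46050, AT1G01500, AT3G61540, AT4G00870 and AT5G11650. AT2G28540 had 0.470, 0.361 and 0.721 at 4 °C, against 1.56, 0.581 and 1.65 at 20 °C. Without its low pair 2 at 20 °C the groups would not have overlapped, and the log2 change was -1.20 ± 0.49 (SE). AT4G04370 had 0.769, 0.403 and 0.519 at 4 °C, against 1.44, 1.02 and 1.14 at 20 °C. Its pair means did not overlap at all: it entered the set through 1 array at 4 °C, at 1.03, which passed the lowest array at 20 °C, at 0.980. AT2G11270 had 0.169, 1.53 and 0.653 at 4 °C, against 1.05, 1.80 and 0.628 at 20 °C, and its log2 change of -1.0 had an SE of 0.90. That change was -0.09 without pair 1 at 4 °C and -1.77 without pair 2 at 4 °C.

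The other 5 of the lower end lay close together, with log2 changes of -0.48 to -0.44. AT2G46050 averaged 0.605 ± 0.145 at 4 °C and 0.869 ± 0.317 at 20 °C (SD, n = 3 each). AT1G01500 averaged 1.01 ± 0.159 at 4 °C and 1.41 ± 0.362 at 20 °C, and AT5G11650 0.634 ± 0.0751 and 0.874 ± 0.220. In these 3 the spread at 20 °C was the wider, with a single pair at 20 °C within the values at 4 °C. AT3G61540 averaged 0.661 ± 0.135 at 4 °C and 0.895 ± 0.0703 at 20 °C, and AT4G00870 1.77 ± 0.222 and 2.42 ± 0.386. In AT3G61540 and AT4G00870 the pair means did not overlap, and single arrays did.

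Genes entered the set with a small difference, a wide spread between pairs or both, or through single arrays of a pair. In 17 genes the pair means did not overlap and only single arrays did. The SD of log2 pair means within a group, pooled over both temperatures, was below 0.2 in 34 genes, and the log2 changes of these 34 lay between -0.33 and 0.46. In 13 genes the SD was at least 0.4, and their log2 changes lay between -1.20 and 1.01. The other 27 lay between. The median SD of the 74 genes was 0.21, beside 0.20 over the probes with a mean of at least 0.8 at 20 °C that were above 0 on all arrays. The 2 medians thus lay close together, and the 13 genes formed the upper tail of the set.

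**Figure D3:**
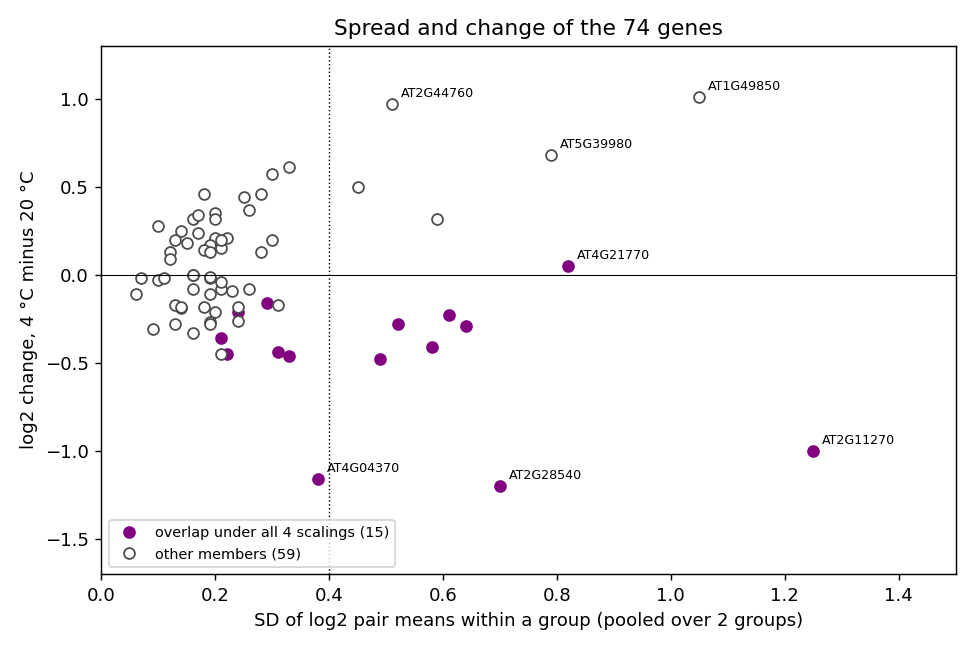
Log2 change, 4 °C minus 20 °C (vertical), against the SD of log2 pair means pooled over both groups (horizontal) for the 74 genes. Filled circles mark the 15 genes whose ranges overlap under all 4 scalings, and 13 genes lie at or right of the dotted line at 0.4, reaching log2 changes of -1.20 and 1.01.

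The 13 variable genes were picked by their SD of log2 pair means, so a wide gap between pairs was built in. In all 13, the largest gap within any pair was below the largest gap between pairs of a group, each taken over both temperatures. The gap within a pair had a median of 0.17 on the log2 scale. The gap between the highest and the lowest pair, in the group where it was larger, was 1.11 to 3.18. Within a single group this order need not hold: AT1G53050 at 4 °C had pair means of 0.656, 0.670 and 0.640, with single arrays from 0.415 to 0.865. AT2G11270 and AT1G53050 were the exceptions in size, with gaps within a pair of 1.49 and 1.28. At 20 °C, 6 of the 13 were lowest in pair 1, 6 in pair 2 and 1 in pair 3. Those lowest in pair 2 were AT5G39980, AT2G28540, AT5G63490, AT5G19750, AT1G53050 and AT1G74070, and 4 of these 6 were also lowest in pair 2 at 4 °C. Those lowest in pair 1 were AT1G49850, AT4G21770, AT5G10920, AT4G24750, AT2G44760 and AT2G46050. None of these 6 was lowest in pair 1 at 4 °C, and pair 1 was the highest there in each of them. Whether pairs of the same number were matched between temperatures is not known, so no meaning is read into these coincidences. Over the probes above 0 on all arrays, the deviations of pair 1 at 4 °C and pair 1 at 20 °C correlated at -0.298.

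AT4G21770 had a wide spread with almost no net change. It had 1.55, 0.491 and 1.20 at 4 °C, against 0.510, 1.20 and 1.36 at 20 °C, and its log2 change was 0.05 ± 0.57 (SE), or -0.40 to 0.54 with 1 pair left out. AT5G63490 had 0.934, 0.454 and 0.849 at 4 °C, against 1.14, 0.496 and 1.17 at 20 °C, with 1 low pair in each group. No label says what differed between the pairs, and its part in these values was not tested. Over all 74 genes the lowest pair was spread more evenly as 26, 23 and 25 genes over pairs 1, 2 and 3 at 4 °C, and as 20, 25 and 29 at 20 °C. Over the 3192 probes with every pair mean above 0 the shares were 29.7%, 27.1% and 43.2% at 4 °C. At 20 °C they were 32.2%, 27.3% and 40.5%, so pair 3 was the most often lowest in both groups.

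Overlap was kept whichever of the 6 pairs was left out in 34 genes and lost without 1 of them in 40. It was lost likewise in 58.0% of the 412 overlapping probes with a mean of at least 0.8 at 20 °C, so the 40 are near the background. Leaving out pair 1 at 4 °C ended the overlap of 15 genes, pair 2 at 4 °C of 2 and pair 3 at 4 °C of 11, against 9, 11 and 7 for pairs 1, 2 and 3 at 20 °C. Pair means, in place of single arrays, overlapped in 57 of the 74, beside 83.0% of the 412 probes.

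Another scaling of the arrays moved the set as a whole. With each array centred on its median, the median log2 change of the 74 genes was 0.82 against 0.10 over all probes, 71 genes were above 0, and 16 of the 74 overlapped, where 33.5% of the 1166 probes with a mean of at least 0.8 at 20 °C did. After quantile normalization the set's median was 0.19 against 0.05 over all probes, with 51 genes above 0 and 55 overlapping, beside 49.4% of those 1166 probes. After cyclic loess the values were 0.11 against 0.00, with 44 above 0 and 62 overlapping, beside 49.2% of those probes. Relative to the median of all probes the set lay 0.72 higher on the log2 scale as deposited and after median centring, 0.15 higher after quantile normalization and 0.12 after cyclic loess. Above the median of all probes lay 71 of the 74 as deposited, 49 after quantile normalization and 44 after cyclic loess. Because overlap was required on the deposited values, the distance from that median is a description of the choice. All 74 overlapped as deposited, where 35.3% of the 1166 probes did. Their overlap counts after scaling therefore do not compare like with like. Whether the amount of RNA per plant changed is not given by these values.

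**Figure D4:**
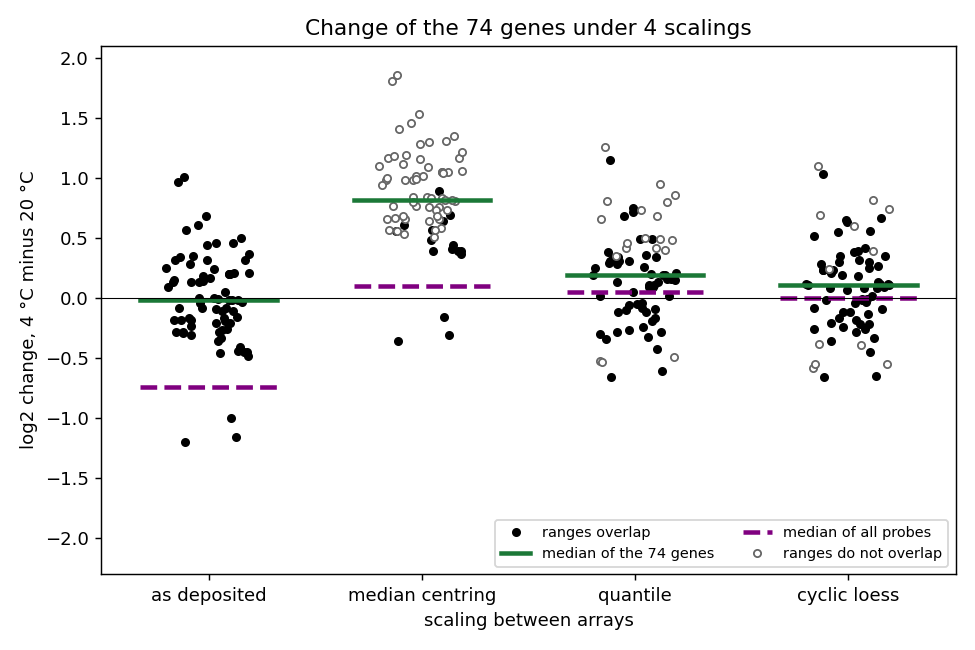
Log2 change, 4 °C minus 20 °C, of each of the 74 genes (points) as deposited and after median centring, quantile normalization and cyclic loess, with filled points where the ranges of the 6 and 6 arrays overlap. The green line is the median of the 74 genes and the dashed line that of all probes: the 2 lie 0.72 apart in the first 2 columns and 0.15 and 0.12 apart in the other 2.

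Ranges overlapped under all 4 scalings in 15 genes, and in 24.8% of the 412 overlapping probes at that level. They were AT1G01500, AT2G28540, AT5G33390, AT4G04370, AT2G11270, AT4G21770, AT5G19750, AT4G24750, AT5G63490, AT5G52530, AT3G61540, AT5G11650, AT2G46050, AT1G53050 and AT1G62150. Of these, 14 had lower values at 4 °C as deposited and 1, AT4G21770, a higher one. Their median SD of log2 pair means was 0.49, against 0.19 in the other 59, and 8 of the 15 were among the 13 variable genes. No gene with an SD below 0.2 was among them. Median centring moved all log2 changes up by nearly the same amount. Overlap both before and after it therefore favours genes with a change below 0 as deposited, a wide spread or both. The lower values and the moderate or wide SDs of the 15 genes were thus largely built in and carry no further weight. None of the 11 genes with a descriptive name was among the 15.

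A different group of 16 genes kept log2 changes within 0.25 of 0 as deposited, after quantile normalization and after cyclic loess. It held AT5G58330, the malate dehydrogenase, with 0.17, -0.05 and -0.12 under these scalings. The chromatin remodelling gene chr31 had -0.08, 0.09 and -0.03, and HEMA3 had -0.17, 0.20 and 0.08. AT1G51080 had -0.02, 0.13 and 0.02, and AT1G50770 had -0.03, 0.02 and -0.09. After median centring all 16 stood above 0, AT5G58330 at 1.02 and chr31 at 0.76.

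The other descriptively named genes left that range under at least 1 of these scalings, FZL only at its edge. NdhS stood at 0.21 as deposited, 1.05 after median centring, -0.28 after quantile normalization and -0.33 after cyclic loess, and CCL at 0.46, 1.3, -0.04 and -0.04. FZL stood at 0.25, 1.1, 0.19 and 0.12 in the same order, and mTERF9, AT5G55580, at 0.20, 1.05, 0.42 and 0.30. THIC was above 0 under all 4, at 0.46, 1.31, 0.95 and 0.82, and its ranges overlapped as deposited only. ATSPS4F stood at -0.02, 0.82, 0.40 and 0.27, LpxA at -0.01, 0.83, 0.50 and 0.39, and DRT101 at 0.00, 0.84, 0.42 and 0.30. So FZL, mTERF9 and THIC had values above 0 under each scaling. NdhS, CCL, ATSPS4F and LpxA changed sign, though in CCL, ATSPS4F and LpxA no value was below -0.04.

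The limits of the rule cut through a continuum. Just inside the level of 0.8 lay AT3G57440, THIC and AT4G16410, with means of 0.834, 0.837 and 0.850 at 20 °C. Just below it, among single-gene probes with overlap, lay AT3G51500, AT1G67800 and AT1G44920, with 0.789, 0.783 and 0.779 at 20 °C and log2 changes of -1.12, -0.44 and -0.58. AT4G00870, THIC and AT1G62250 had the slightest overlap, by about 0.01 on the log2 scale for each. CUTA, AT1G31790 and AT1G03810 missed it by gaps of 0.0024, 0.00929 and 0.0189 on that scale, with log2 changes of -0.23, -0.36 and -0.30. These 3 changes are no larger than those of many genes inside.

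The 74 genes were spread over the genome. By locus name, 14 were on chromosome 1, 15 on chromosome 2, 15 on chromosome 3, 16 on chromosome 4 and 14 on chromosome 5, where the array had 173, 124, 130, 120 and 143 single-gene probes. Within 10 protein-coding genes of each other lay 6 pairs of them in the gene order of the assembly TAIR10.1. The closest were AT3G09050 and AT3G09080, with 3 genes between them and log2 changes of -0.28 and -0.17. AT3G50130 and AT3G50180, with 4 genes between them, had 0.20 and 0.00. AT1G50770 and AT1G50880, with 6 between, differed more, at -0.03 and 0.61.

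Genes in common use as references for transcript levels were almost absent from the single-gene probes. Of 23 such genes, 1 had a single-gene probe, and none was among the 74. None of 17 cold-regulated genes and none of 17 marker genes of leaf, flower, root and seed had a single-gene probe. On probes that name several genes stood 2 of the cold-regulated genes and 1 of the leaf genes, and these were not read, so the organ and the cold response were not checked by markers.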

How the data were processed

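Total RNA was measured on 12 arrays, 6 per temperature. The authors deposited 1 linear intensity per probe and array. No label or header says how background and scale were set. Probes were named from the platform annotation (692 with 1 name, 870 with several, 1877 with none here), updated through gene identifiers to assembly TAIR10.1; 690 matched a locus. No product names or sequences were at hand, so roles are given for described symbols only.

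Values of 0, which no member had, were set to the lowest value above 0 of that array. Log2 values of arrays 1-2, 3-4 and 5-6 of a group were averaged and tested two-sided by limma 3.58.1 (lmFit, then eBayes; R 4.3.3), with Benjamini-Hochberg adjustment over all 3439 probes at 0.05; counts cover the 3379 above 0 on an array. The script was tested on simulated data. SEs come from this fit and are moderated by eBayes. Within a group, deviations of arrays of a pair correlated at 0.202 or more at 4 °C and 0.795 or more at 20 °C, and those of other arrays at -0.228 or less and -0.0838 or less. Replicate numbers are in the labels; same-numbered pair means at the 2 temperatures deviated with correlations of -0.298, -0.0077 and 0.122, so no block was used.

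Members and lists were chosen with earlier results of these data known. Genes named in full are the 10 highest at 20 °C, the 8 highest and 8 lowest changes, the 5 smallest, the 4 with the largest SD, the 3 just inside the level, and the 11 with descriptive names. Other genes are named after their values were seen. Alternatives were 3 scalings, an offset of 0.111 before log2, leaving out the dimmest probes, a trended variance, single arrays, another pairing, a replicate block, each pair left out, other levels and overlap of pair means.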

Additional observations from a re-analysis of the deposited data

How the results depend on the processing

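The median log2 change of the 74 genes, -0.02 as deposited, was 0.82 after median centring, 0.19 after quantile normalization and 0.11 after cyclic loess, and that of all probes, -0.74, was 0.10, 0.05 and 0.00, against -0.51 with the offset and -0.64 without the dimmest probes. With a level of 0.6 in place of 0.8 the set's median was -0.11. It was -0.04 to 0.04 and that of all probes -0.78 to -0.71 with each pair left out in turn. Probes called higher at 4 °C numbered 232 as deposited, 940 after median centring, 658 after quantile normalization, 646 after cyclic loess, 420 over 12 arrays, 441 with arrays paired as 1-4, 2-5 and 3-6, and 142 to 210 with a pair left out, lowest without pair 3 at 20 °C. Probes called lower numbered 1675 as deposited, 699, 692 and 701 after the 3 scalings in that order, and 1383 to 1621 with a pair left out. With the pair number as a replicate block these counts were 207 higher and 1602 lower. The same rule on scaled values chose 63, 98 and 98 genes, of which 16, 55 and 62 were among the 74. Other levels gave 103 (0.6) and 54 (1) genes, pair means 57, and a pair left out 59 to 72, lowest without pair 1 at 4 °C. Of the 38 genes named by rule, 36, 25 and 23 moved by more than their SD under median centring, quantile normalization and cyclic loess. With the offset none did. Single arrays and the other pairing give the same log2 changes by construction, so no gene could move there. With a pair left out all 38 stayed within their SD. Leaving out 1 of 3 pair means could hardly move a log2 change beyond that SD, so this count carries no weight. The log2 changes of variable genes such as AT2G11270 and AT5G39980 still moved by over 1.5 times. The cause of these shifts was not tested. The number of arrays limits the precision, and signal over background is not known.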
